A study of Mus musculus with 2 samples.

Results

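The type 2 innate lymphocyte genes reported here are 9 genes taken from a list of symbols: Il1rl1, Gata3, Areg, Il5, Il13, Il4, Rora, Ly6a and Klrg1. Each symbol was found once among the 32285 genes of both libraries, so the set holds 9 of 32285 genes. At least 1 UMI (unique molecular identifier, a tag that counts each captured mRNA once) lay in a kept cell for 8 of the 9, and Il13 had none. Levels are given as CPM, the UMIs of a gene relative to all UMIs of the cells named.

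The libraries hold CD45+ leukocytes that were sorted from the brown adipose tissue (BAT) of male C57Bl/6 mice, 16 weeks old by the GEO labels while the study text gives another age, and processed with 10x Genomics 3′ v3.1 chemistry. All mice carried AdipoQ-CreERT2, a tamoxifen-activated Cre recombinase driven by the adiponectin promoter of adipocytes, and floxed alleles of ATGL, the triglyceride lipase encoded by Pnpla2. Control mice received vehicle on the same schedule, and AdipoΔ/Δ mice received tamoxifen, given as 200 µL of a 10 mg/ml solution per injection into the peritoneum every 2 days for 1 week and followed by 2 weeks of rest. There was 1 library per condition and the labels do not state how many mice went into each, so no p-value is given, and all intervals are 95% intervals that cover counting error only. Where a count is 0, the limit in the text is the 1-sided one of 3 counts, which is lower than the 2-sided limit drawn in the figures.

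The control library held 2597 barcodes with 11327187 UMIs and the AdipoΔ/Δ library 2381 barcodes with 12028844 UMIs, of which 4 barcodes occurred in both. Cells were kept if they had 200 or more genes with a UMI and if mitochondrial genes gave no more than 10% of their UMIs, which left 2279 control cells with a median of 3678 UMIs and 2016 AdipoΔ/Δ cells with a median of 3942 UMIs. The limit of 2% in the methods of the study would have left 1306 and 889 barcodes of these files. The study reports more cells than this in both libraries after its filters, so these are not the cells that it kept. Scrublet called 8 control and 6 AdipoΔ/Δ barcodes as doublets, and these were not removed. Ptprc, which encodes CD45, had a UMI in 80.4% of kept cells in both libraries. Pnpla2 had 399 UMIs in control and 477 in AdipoΔ/Δ cells, which checks nothing, since the deletion is induced in adipocytes and these cells are leukocytes.

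Group 2 innate lymphoid cells (ILC2) are tissue-resident lymphocytes without a rearranged antigen receptor. They respond to the alarmin IL-33 through its receptor ST2, depend on the transcription factors GATA3 and RORα, and secrete IL-5, IL-13 and amphiregulin. In adipose tissue they are known for sustaining eosinophils and alternatively activated macrophages and for promoting beige fat.

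ILC2-like cells were delimited by clustering, and scored for markers, without these genes. The cells were clustered after the member genes had been left out, which gave 17 clusters, and the cluster that ranked first for ILC2 markers, of 258 cells, held T cell markers as well. This cluster was split again without the member genes, and 1 of its 7 sub-clusters had 7 of 12 listed ILC2 markers detected in at least 10% of its cells, among them Il7r in 67.8%, Id2 in 84.7% and Il2ra in 45.8% of its cells. The other sub-clusters had 3 to 6 of the 12 and the Cd7 and Xcl1 cluster had 6, so the count alone set it little apart. Its mean log2 ratio of these markers over all other kept cells was 1.99, against 0.66 or less in every other cluster. The markers detected in fewer than 10% of its cells were Il17rb and Nmur1, with 2 UMIs each, Pparg, with 1, and Calca and Hes1, with none. Pparg stood at 5.01 CPM against 15.3 CPM in all other kept cells. Il17rb and Nmur1 stood at 10.0 CPM each against 0.183 and 0.0914 CPM. This split, and the rule that named its sub-clusters, were chosen after the data had been seen, and 2 barcodes led by epithelial or mast cell genes were set apart in the same step. Both the rule and the setting apart also used the 10 genes most enriched in each sub-cluster. For the ILC2-like one these included Il1rl1, Gata3, Ly6a and Klrg1. The other sub-clusters carried T cell markers and are called co-clustered T cell-like.

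ILC2-like cells numbered 31 in the control and 28 in the AdipoΔ/Δ library. These were 1.36% (0.926 to 1.93) and 1.39% (0.925 to 2.00) of kept cells. The ratio of the shares, AdipoΔ/Δ over control, was 1.02 (0.590 to 1.76), so the share did not differ beyond counting error. With a 5% mitochondrial limit and a further cluster that the naming rule then took, the shares were 4.11% and 3.82%, so their size depends on this choice. Their median depth was 3330 UMIs in control and 3210.5 UMIs in AdipoΔ/Δ. No UMI of Cd3d, Cd3e, Cd3g or Trac was found in 27 of the 31 control and 19 of the 28 AdipoΔ/Δ cells, so some cells with T cell receptor transcripts may be among them. Macrophage-like cells, by comparison, numbered 73 in control and 228 in AdipoΔ/Δ, and the share of the ILC2-like cells is set by the other classes in the same sort as well.

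Il1rl1 encodes ST2, the IL-33 receptor, and lies at chr1:40429570-40465415 on the forward strand (GRCm38). Counts were made per gene, so membrane-bound and soluble ST2 were not separated. RefSeq lists a pair of start sites for it, and both promoters are shown because this receptor was found both in ILC2-like cells and in a cluster of another kind. Words known to be bound by GATA factors were searched on both strands: AGATAA, held by 11.2% of all promoters of this length, the word AGATAG, held by 8.95%, the word TGATAA, held by 9.05%, and the word TGATAG, held by 7.29%. The word AGGTCA, known to be bound by ROR factors, was searched likewise, and all matches are printed in capitals, as the reverse complement where they lie on the other strand. The build is GRCm38.p6, and the promoters lie at chr1:40429320-40429619 and chr1:40439379-40439678 on the forward strand.
Il1rl1 first promoter: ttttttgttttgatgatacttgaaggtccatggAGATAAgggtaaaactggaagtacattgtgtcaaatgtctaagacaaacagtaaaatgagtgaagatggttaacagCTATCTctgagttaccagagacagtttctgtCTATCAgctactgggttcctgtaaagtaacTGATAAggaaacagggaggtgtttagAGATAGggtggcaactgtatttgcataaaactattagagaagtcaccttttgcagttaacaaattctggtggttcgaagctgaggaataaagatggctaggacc
Il1rl1 second promoter: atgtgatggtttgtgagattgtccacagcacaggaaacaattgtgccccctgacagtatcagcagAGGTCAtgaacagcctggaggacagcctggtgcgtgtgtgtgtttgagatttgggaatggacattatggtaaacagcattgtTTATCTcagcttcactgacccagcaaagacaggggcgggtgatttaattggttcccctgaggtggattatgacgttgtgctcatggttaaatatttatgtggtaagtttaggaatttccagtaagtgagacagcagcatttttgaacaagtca
The first promoter held 5 GATA words and the second held 1, next to 1 AGGTCA. Of the 32851 promoters of this length in the RefSeq table, 29.8% held at least 1 of the 4 GATA words and 16.3% held AGGTCA. A match is a description of these letters and not evidence of binding.

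In control cells, ILC2-like cells had the highest Il1rl1 level, 473 CPM (350 to 625) from 49 UMIs. They were followed by an unnamed low-depth cluster led by Col3a1 and Tpsb2 at 152 CPM (84.9 to 250.2), where 10 of its 15 UMIs came from 1 cell. Its largest marker sum in control was that of the basophil and mast cell list, 7292 CPM (10 of 10 genes, led by Cma1). In AdipoΔ/Δ that list had 676 CPM, and the macrophage list was the largest at 3766 CPM. The part of this make-up in its Il1rl1 level was not tested. An unnamed cluster led by Akr1c18 and Gm41307 was next at 94.1 CPM (61.5 to 138), and its interval overlapped that of the cluster before it. Co-clustered T cell-like cells had 24.9 CPM, dividing cells 23.1 CPM and dendritic cells 11.4 CPM, with intervals that overlapped, and every other class was at 4.02 CPM or less. The order thus separated ILC2-like cells from all other classes and the Akr1c18 cluster from the T cells, while each class below overlapped with the next.

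The AdipoΔ/Δ library placed the same class first, with 354 CPM (245 to 495) from 34 UMIs. The Akr1c18 cluster followed with 84.2 CPM (69.6 to 100.9), apart from the classes ranked next to it, although its interval met that of the Col3a1 cluster (22.2 to 71.2). Dividing cells had 46.3 CPM, the Col3a1 cluster 41.6 CPM, dendritic cells 27.2 CPM, macrophages 19.3 CPM and co-clustered T cells 14.3 CPM, and each of these overlapped with the next. T cell-like, B cell-like and neutrophil-like cells of this library had no Il1rl1 UMI, which allows up to 3.86, 12.5 and 5.69 CPM. Within ILC2-like cells the ratio of the levels was 0.750 (0.469 to 1.19), so the level in this class did not differ between the libraries beyond counting error.

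**Figure D1:**
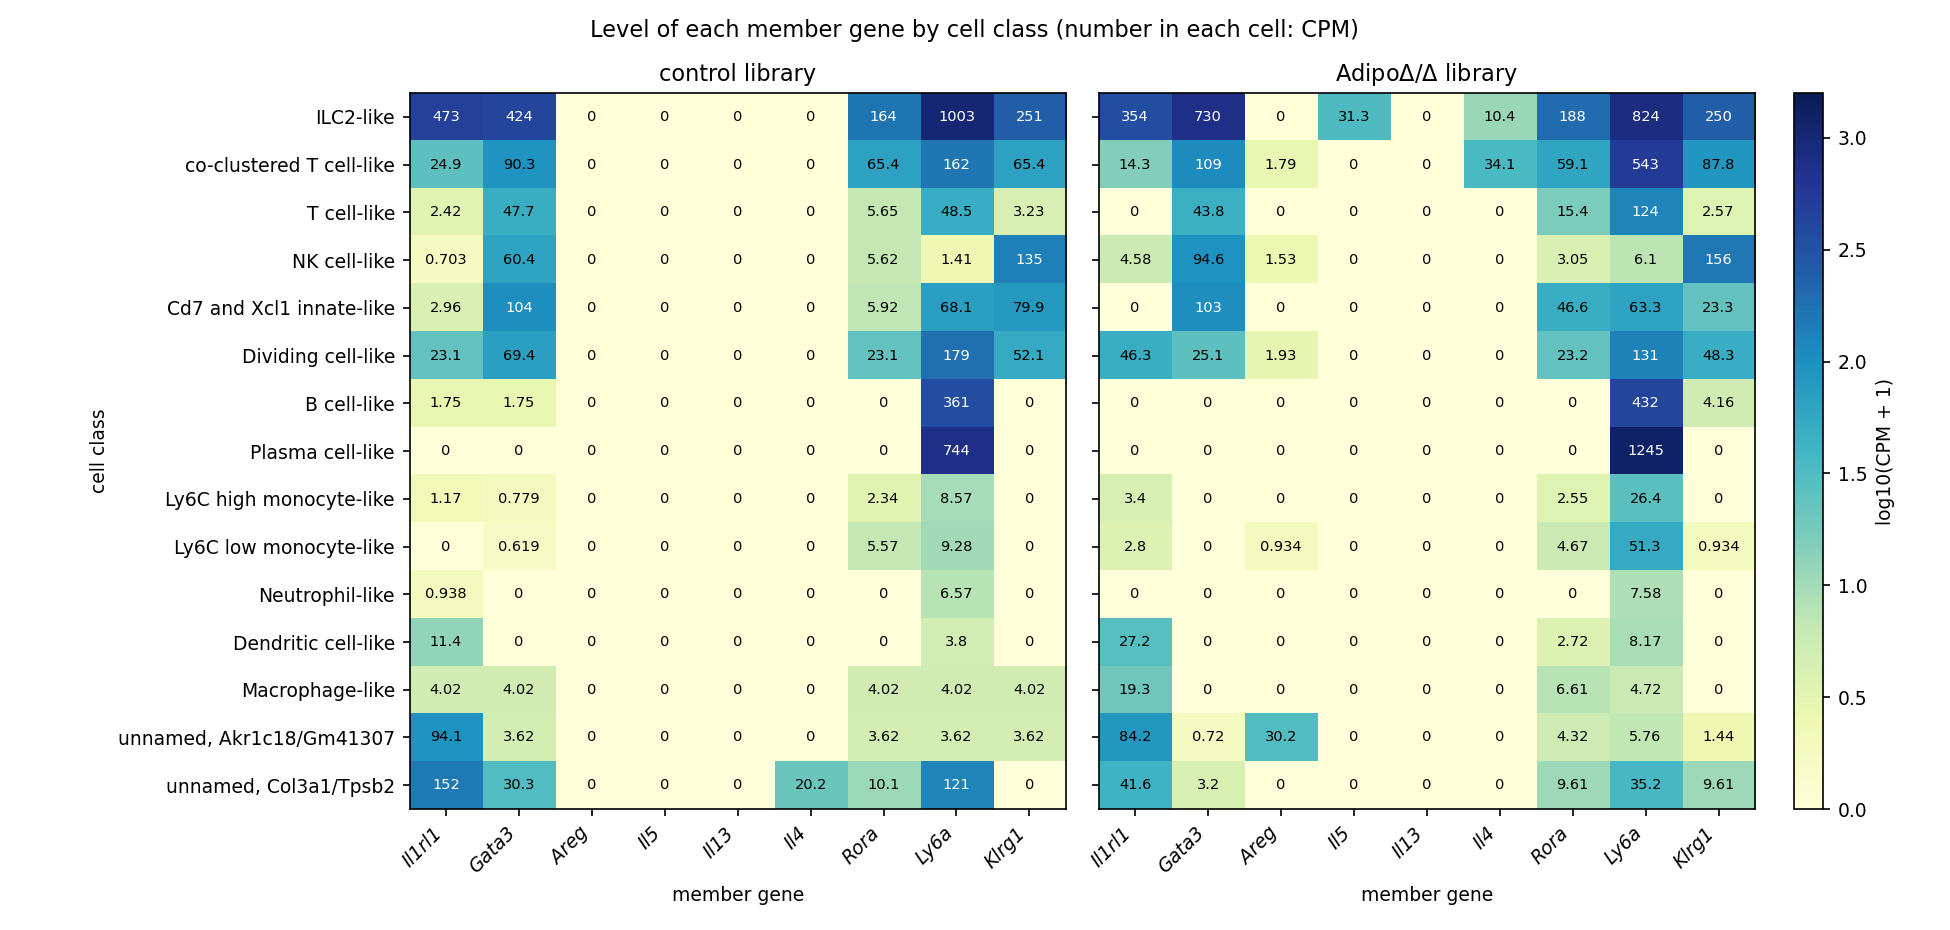
Level of the 9 member genes (columns) in 15 cell classes (rows) of the control (left) and AdipoΔ/Δ library (right), with the CPM printed in each field and the colour giving log10(CPM + 1). The ILC2-like row holds the highest value for Il1rl1, Gata3, Rora and Klrg1 in both libraries, and Il1rl1 also stands at 94.1 and 84.2 CPM in the Akr1c18 cluster.

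Over all kept cells, Il1rl1 stood at 11.1 CPM (119 UMIs) in control and 24.1 CPM (273 UMIs) in AdipoΔ/Δ, a ratio of 2.18 (1.75 to 2.73) that was 1.89 with a mitochondrial limit of 5%. Without the ILC2-like cells the levels were 6.57 and 21.3 CPM, a ratio of 3.24 (2.47 to 4.29). The difference in the whole library therefore lay outside the ILC2-like class. ILC2-like cells held 41.2% (32.2 to 50.6) of the Il1rl1 UMIs in control and the Akr1c18 cluster 21.8% (14.8 to 30.4), while in AdipoΔ/Δ the order was reversed, with 12.5% (8.78 to 17.0) and 42.9% (36.9 to 49.0). This cluster made up 2.15% of control and 8.93% of AdipoΔ/Δ kept cells, while its own Il1rl1 level had a ratio of 0.894 (0.581 to 1.43). Of its 229 cells, 78.6% came from the AdipoΔ/Δ library, as did 77.2% of the Col3a1 cluster and 75.7% of macrophage-like cells. Whether the unnamed clusters reflect that library or a cell type was not tested. Macrophage-like cells had 1 Il1rl1 UMI in control and 41 in AdipoΔ/Δ, at 4.02 and 19.3 CPM, a ratio of 4.81 with an interval from 0.817 to 195. This class joined a cluster led by Gpnmb, with 13 control and 90 AdipoΔ/Δ cells, and another with 60 and 138. The part of this difference in make-up in the ratio was not tested.

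The unnamed Akr1c18 cluster had its largest marker sums for the Ly6C high monocyte list (7 of 7 genes present, led by Ccr2), with 1951 CPM in control and 1541 CPM in AdipoΔ/Δ, and for the macrophage list (10 of 10, led by Mrc1), with 1589 and 1269 CPM. Presence says little here, since the neutrophil, Ly6C low monocyte, plasma cell and dividing cell lists were complete as well, at 349 CPM or less. Of the macrophage markers 7 reached 10% of its cells, and their mean log2 ratio over all other kept cells was −1.18. The ILC2 list had 391 and 475 CPM (6 of 12 genes, led by Id2, with Il2ra, Il17rb, Nmur1, Calca, Csf2 and Bcl11b at 0). The basophil and mast cell list had 3.62 and 8.63 CPM (2 of 10 genes, led by Cd200r3, with Mcpt8, Cpa3, Fcer1a and Cma1 among those at 0). An Il1rl1 UMI was found in 36.7% of its control and 40.6% of its AdipoΔ/Δ cells, at median depths of 3998 and 5935.5 UMIs. Neutrophil-like cells, which served as a class without the gene, had 0.318% in control and none of 173 cells in AdipoΔ/Δ, at median depths of 2968.5 and 2720 UMIs. After each cell had been thinned to 1000 UMIs 4 of 49 control and 19 of 172 AdipoΔ/Δ cells of the Akr1c18 cluster had one, against 1 of 293 and 0 of 157 neutrophil-like cells, with 8 cells of the AdipoΔ/Δ cluster too shallow. The share in this cluster thus exceeded that of neutrophil-like cells at full and at equal depth.

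Gata3 encodes the zinc finger factor that directs ILC2 and type 2 helper T cell programmes. It lies at chr2:9857078-9890034 on the reverse strand. Its RefSeq promoter is printed since Gata3 had the largest ratio between the libraries among the members in ILC2-like cells. It lies at chr2:9878551-9878850 on the reverse strand of GRCm38.p6 and held a single GATA word, TGATAG, in capitals.
Gata3 promoter: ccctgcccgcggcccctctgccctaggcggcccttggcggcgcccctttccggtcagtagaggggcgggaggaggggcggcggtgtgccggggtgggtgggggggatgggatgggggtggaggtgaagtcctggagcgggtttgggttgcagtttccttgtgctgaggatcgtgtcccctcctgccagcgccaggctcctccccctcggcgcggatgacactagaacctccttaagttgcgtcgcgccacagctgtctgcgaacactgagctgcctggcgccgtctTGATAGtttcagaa
ILC2-like cells had the highest level in both libraries, 424 CPM (308 to 570) in control and 730 CPM (569 to 922) in AdipoΔ/Δ, from 44 and 70 UMIs. The ratio was 1.72 (1.16 to 2.57), the only one of the members in this class whose counting interval lay wholly on 1 side of 1, as did 129 of all 1208 genes with at least 20 UMIs there. It stayed within 2-fold, and 1 AdipoΔ/Δ cell held 10 of the 70 UMIs, against no more than 4 in any control cell of the class. The share of cells with a Gata3 UMI was 71.0% in control and 71.4% in AdipoΔ/Δ, against 0 of 314 control and 0 of 173 AdipoΔ/Δ neutrophil-like cells, which allows up to 0.955% and 1.73%. Thinning gave 29.6% of 27 and 40.0% of 25 cells. The share of positive cells at full depth was thus alike in both libraries.

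Other lymphocytes expressed Gata3 at a lower level. In control, the innate-like cells led by Cd7 and Xcl1 had 104 CPM, co-clustered T cells 90.3 CPM, dividing cells 69.4 CPM, NK cells 60.4 CPM and T cells 47.7 CPM, with overlapping intervals from each to the next. In AdipoΔ/Δ, co-clustered T cells had 109 CPM, the Cd7 and Xcl1 cells 103 CPM and NK cells 94.6 CPM, which overlapped and were apart from T cells at 43.8 CPM. B cells, plasma cells, neutrophils and dendritic cells of that library had no UMI. NK cells, being many, held 210 of the 613 Gata3 UMIs (34.3%), more than the ILC2-like cells with 114 (18.6%). The ratio in NK cells was 1.57 (1.18 to 2.09), so its interval also lay above 1. Dividing cells had a ratio of 0.362 (0.152 to 0.867), but this class held T cell and macrophage markers together (9 and 8 of 10 detected), and the part of that mix was not tested.

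Rora encodes RORα, a nuclear receptor needed for ILC2 development, and lies at chr9:68653786-69388246 on the forward strand. Its ILC2-like level was 164 CPM (95.5 to 263) in control and 188 CPM (111 to 297) in AdipoΔ/Δ, a ratio of 1.14 (0.556 to 2.36) that turned to 0.616 at the 2% mitochondrial limit. Co-clustered T cells followed with 65.4 and 59.1 CPM, overlapping with ILC2-like cells in control and apart from them in AdipoΔ/Δ. They held 54 of the 204 Rora UMIs (26.5%) against 35 (17.2%) in ILC2-like cells. A Rora UMI was found in 38.7% of control and 35.7% of AdipoΔ/Δ ILC2-like cells and in no neutrophil-like cell. After thinning these were 1 of 27 and 3 of 25 cells, too few to order the classes by share. Rora UMIs were thus spread over ILC2-like cells, T cells and other classes, macrophages and monocytes among them. Its ratio had an interval off 1 in a single class, the Cd7 and Xcl1 cells, with 2 and 14 UMIs (7.88, 1.81 to 71.4). Over all kept cells its levels were 7.25 and 11.1 CPM, a ratio of 1.53 (1.15 to 2.06).

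The type 2 cytokine genes were nearly undetected at this depth. Il13, which drives mucus and alternative macrophage activation, had no UMI in any of the 4978 barcodes. In ILC2-like cells a count of 0 allows up to 3 counts, or 28.9 CPM in control and 31.3 CPM in AdipoΔ/Δ. Il5, the eosinophil growth factor, had 3 UMIs, all in 1 AdipoΔ/Δ ILC2-like cell that also had Il1rl1, Gata3, Rora and Ly6a. Il4 had 26 UMIs in 4 cells: 19 in 1 co-clustered T cell of the AdipoΔ/Δ library, 4 in the AdipoΔ/Δ barcode set apart for its mast cell genes, 2 in 1 control cell of the Col3a1 cluster and 1 in an AdipoΔ/Δ ILC2-like cell. No comparison between the libraries rests on these counts, since each belongs to a single cell.

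These 3 genes are neighbours on chromosome 11, with Il4 at chr11:53602982-53618669, Il13 at chr11:53631324-53634702 and Il5 at chr11:53720794-53725106. The promoters of Il13 and Il5 are shown as those of the classical ILC2 products that were close to 0 here. They lie at chr11:53634653-53634952 on the reverse and chr11:53720544-53720843 on the forward strand of GRCm38.p6.
Il13 promoter: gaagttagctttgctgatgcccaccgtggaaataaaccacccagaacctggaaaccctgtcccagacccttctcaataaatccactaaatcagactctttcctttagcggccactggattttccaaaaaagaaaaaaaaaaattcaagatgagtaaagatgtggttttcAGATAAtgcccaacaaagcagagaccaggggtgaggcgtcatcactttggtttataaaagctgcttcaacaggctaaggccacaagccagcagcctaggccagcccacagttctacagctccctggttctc
Il5 promoter: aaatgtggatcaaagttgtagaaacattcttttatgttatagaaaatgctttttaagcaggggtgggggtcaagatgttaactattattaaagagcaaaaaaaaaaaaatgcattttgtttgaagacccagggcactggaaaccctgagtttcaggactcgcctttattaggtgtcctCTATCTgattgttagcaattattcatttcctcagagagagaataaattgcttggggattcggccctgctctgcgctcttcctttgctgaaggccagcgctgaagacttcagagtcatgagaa
Each held 1 GATA word, AGATAA for Il13 and AGATAG, read on the other strand, for Il5. Promoters were found in the RefSeq table for 7 of the 9 members, 9 promoters in all, of which 8 held a GATA word, against 29.8% of all 32851 promoters. Ly6a and Klrg1 were not among the 7.

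Areg encodes amphiregulin, a ligand of the epidermal growth factor receptor. It had no UMI in any ILC2-like cell and none in the control library, where 0 allows up to 0.279 CPM over kept cells. The AdipoΔ/Δ library held 47 UMIs in 6 cells, 41 of them in 1 cell of the Akr1c18 cluster, so only 6 UMIs remained without that cell. Areg was thus not detectable in ILC2-like cells at this depth, and the size of its difference between the libraries came mostly from 1 cell.

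**Figure D2:**
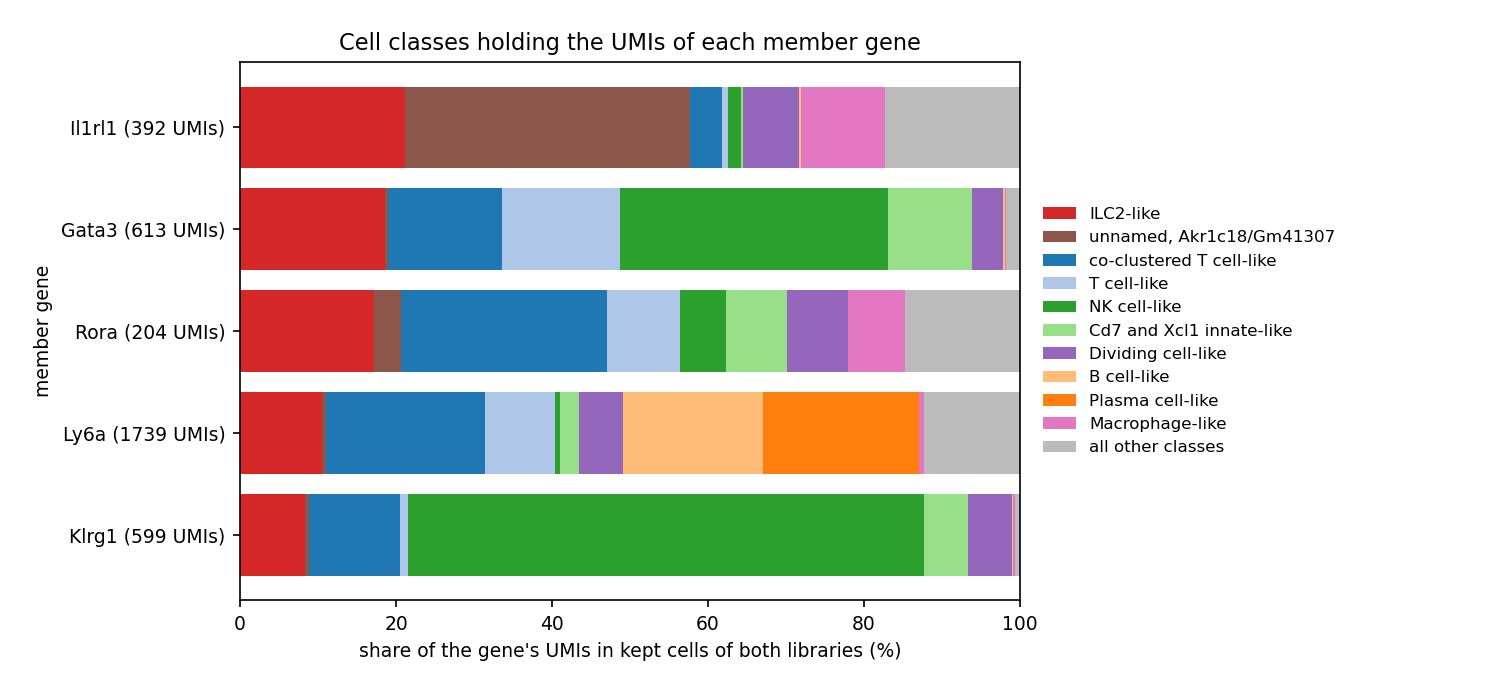
Share of the UMIs of each member (bars, in % of its UMIs in kept cells of both libraries) that lay in each cell class (colours), for the 5 members with the most UMIs. ILC2-like cells held 21.2% of Il1rl1, 18.6% of Gata3, 17.2% of Rora, 10.5% of Ly6a and 8.35% of Klrg1 UMIs. These pooled values hide that they held 41.2% of Il1rl1 in control and 12.5% in AdipoΔ/Δ, and 14.8% and 7.64% of Ly6a.

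Ly6a encodes the surface protein Sca-1, which is induced by interferons in many lymphocytes, and lies at chr15:74994877-74998031 on the reverse strand. It belongs to a family of close copies, so some reads may be assigned to the wrong member. ILC2-like cells had 1003 CPM (820 to 1216) in control and 824 CPM (652 to 1026) in AdipoΔ/Δ, a ratio of 0.821 (0.605 to 1.11). Plasma cells stood at 744 CPM (618 to 890) in control, overlapping with the ILC2-like class, and at 1245 CPM (1088 to 1418) in AdipoΔ/Δ, above it. The plasma cell class had only 12 control and 8 AdipoΔ/Δ cells. B cells had 361 CPM in control and 432 CPM in AdipoΔ/Δ. Ly6a was thus high in ILC2-like cells without being particular to them, and these cells held 183 of its 1739 UMIs (10.5%). By library, their share was 14.8% in control and 7.64% in AdipoΔ/Δ.

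Ly6a was higher in the AdipoΔ/Δ library in several classes other than ILC2-like cells. Co-clustered T cells had 162 CPM (52 UMIs) in control and 543 CPM (303 UMIs) in AdipoΔ/Δ, a ratio of 3.35 (2.49 to 4.59). The T cell-like class had 48.5 and 124 CPM, a ratio of 2.55 (1.83 to 3.58). Monocytes had low levels but larger or similar ratios, with 9.28 and 51.3 CPM in Ly6C low cells (5.53, 3.08 to 10.5) and 8.57 and 26.4 CPM in Ly6C high cells (3.08, 1.72 to 5.58). Plasma cells had a ratio of 1.67 (1.34 to 2.10), from 12 control and 8 AdipoΔ/Δ cells. In AdipoΔ/Δ, 1 plasma cell held 58 of the 227 UMIs. The Col3a1 cluster had a ratio of 0.290 (0.116 to 0.718), but 1 cell held 11 of its 12 control UMIs. No direction is read from that ratio. The T cell and monocyte ratios were past 2-fold, whereas that of the ILC2-like cells was not. The co-clustered T cells were drawn from different sub-clusters in each library, since the sub-cluster led by Cxcr6 and Cd8a gave 10 control and 31 AdipoΔ/Δ cells, and the part of this in the result was not tested. A Ly6a UMI was found in 77.4% of control and 85.7% of AdipoΔ/Δ ILC2-like cells, and in 1.91% and 2.31% of neutrophil-like cells. Thinning gave 55.6% and 44.0%, against 0.341% and 1.91%.

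Klrg1 encodes an inhibitory lectin-like receptor found on mature ILC2, NK cells and effector T cells, and lies at chr6:122270596-122282882 on the reverse strand. ILC2-like cells had 251 CPM (164 to 367) in control and 250.2 CPM (160 to 372) in AdipoΔ/Δ, a ratio of 0.998 (0.548 to 1.81). NK cells followed at 135 CPM (117 to 155) and 156 CPM (135 to 179), apart from the ILC2-like class in control and overlapping with it in AdipoΔ/Δ. The Cd7 and Xcl1 cells had 79.9 and 23.3 CPM, a ratio of 0.292 (0.107 to 0.687). With 396 of the 599 UMIs (66.1%), NK cells were the main source of Klrg1 in these libraries. A Klrg1 UMI was found in 12 of 31 control and 14 of 28 AdipoΔ/Δ ILC2-like cells, and no neutrophil-like cell had one. Thinning gave 22.2% and 24.0%, against 12.6% and 12.2% in NK cells.

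**Figure D3:**
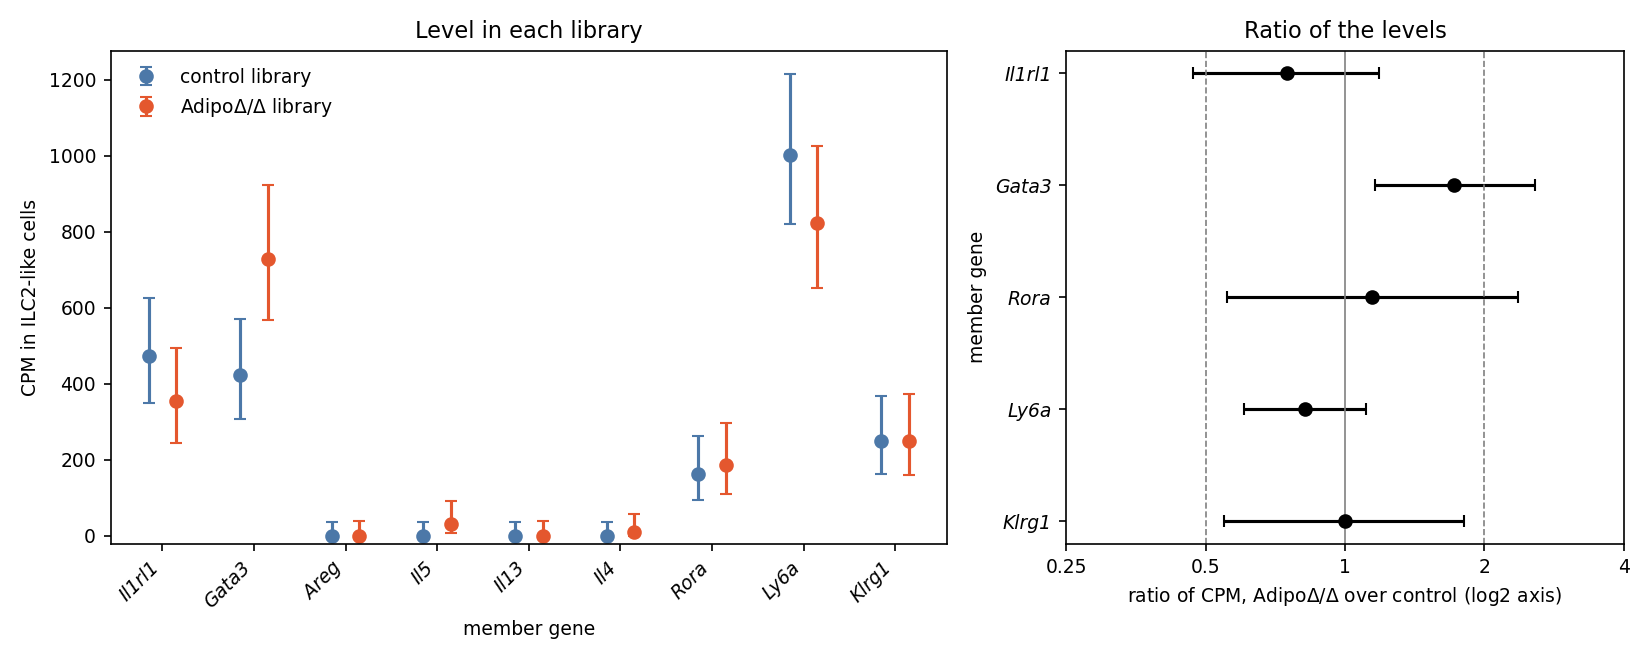
Left, CPM of each member in the ILC2-like cells of each library (points), with exact Poisson 95% intervals of the UMI counts (bars). Right, ratio of the levels on a log2 axis for the 5 members with at least 20 UMIs, with conditional binomial 95% intervals and dashed lines at 2-fold. All 5 ratios lie between 0.750 and 1.72, inside the dashed lines.

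The 5 members with at least 20 UMIs in ILC2-like cells (Il1rl1, Gata3, Rora, Ly6a and Klrg1) were set against all genes with as many UMIs. None of the 5 had a ratio of at least 2 or at most 0.5 between the libraries. Among 1208 genes 116 did (9.6%), with 73 genes higher in AdipoΔ/Δ (6.04%) and 43 lower (3.56%). The median ratio was 0.998 over the members and 1.04 over all genes. The share was 3.06% among genes with at least 50 UMIs and 18.7% among those with at least 10. With 5 members and this background, a count of 0 is no result about the members.

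Genes of other cell types did move in the same cells. The macrophage list had 2 UMIs in control and 20 in AdipoΔ/Δ (19.3 and 208 CPM, 6 of 10 genes present, Apoe the most abundant, Mertk, Cd68, Fcgr1 and Ms4a7 at 0). The erythroid list (2 of 3 genes, led by Hba-a1, Alas2 at 0) had 76 and 13 UMIs, or 733 and 136 CPM. The neutrophil list (5 of 7 genes, led by S100a9, Csf3r and Hdc at 0) had 386 and 83.4 CPM. The T cell list (8 of 10 genes, led by Trbc2, Cd8a and Cd8b1 at 0) had 859 and 1543 CPM, and the gamma-delta T cell list (5 of 5 genes, led by Tcrg-C1) 164 and 427 CPM. Their part in the ratios of the members was not tested, apart from an alternative setting for T cell genes. That setting kept only the 27 control and 19 AdipoΔ/Δ ILC2-like cells without a UMI of Cd3d, Cd3e, Cd3g or Trac.

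The 5 largest ratios on either side, among the 425 genes with at least 50 UMIs, included such genes. Lyz2, a lysozyme of myeloid cells, had 106 CPM in control and 438 CPM in AdipoΔ/Δ, a ratio of 4.13 (2.09 to 8.89). It was followed by Rpl9, D8Ertd738e, Dnaja1 and Cxcr6, with ratios from 2.62 to 2.33. Cxcr6, a chemokine receptor of tissue-resident lymphocytes, stood at 183 and 427 CPM. On the other side were Hba-a1, a haemoglobin chain, with a ratio of 0.195, Zfp36, Ndufb1-ps, Lars2 and Ppp1cc.

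Cells with UMIs of 2 or more members numbered 115 in control (5.05%, 4.18 to 6.03) and 160 in AdipoΔ/Δ (7.94%, 6.79 to 9.20). The share was highest in ILC2-like cells, with 25 of 31 control (80.6%, 62.5 to 92.5) and 22 of 28 AdipoΔ/Δ cells (78.6%, 59.0 to 91.7) and a median of 3 members per cell in both libraries. Among dividing cells the shares were 52.9% and 32.4%, and among Cd7 and Xcl1 innate-like cells they were 14 of 35 and 8 of 34 cells. These were deeper cells, with median depths of 7534 and 9760 UMIs for dividing and 8830 and 8096.5 UMIs for Cd7 and Xcl1 cells. NK cells had 16.9% and 30.6%, co-clustered T cells 19.8% and 29.7%. B cells, at 1 of 262 and 0 of 92 cells, and neutrophils, at 0 of 314 and 0 of 173, give the background. Thinned to 1000 UMIs, 13 of 27 control (48.1%) and 11 of 25 AdipoΔ/Δ ILC2-like cells (44.0%) had 2 or more members, against 9.86% and 10.4% of co-clustered T cells and 0.966% and 2.33% of NK cells. The thinning left out 199 control and 259 AdipoΔ/Δ cells with fewer UMIs, 4 and 3 of them ILC2-like. The order with ILC2-like cells first thus held at equal depth.

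Although most ILC2-like cells were positive for several members, they were a minority of the cells with 2 or more. They made up 21.7% (14.6 to 30.4) of these in control and 13.8% (8.82 to 20.1) in AdipoΔ/Δ. NK cells gave 30.4% and 33.1%, and co-clustered T cells 14.8% and 20.6%. With 3 or more members the ILC2-like share was 52.9% (35.1 to 70.2) in control and 19 of 47 cells (26.4 to 55.7%) in AdipoΔ/Δ. With 4 or more it was 12 of 12 control and 11 of 19 AdipoΔ/Δ cells. The share of the class thus grew with the number of members detected. The 8 cells with 4 or more members outside the class all came from the AdipoΔ/Δ library: 4 co-clustered T cells, 3 dividing cells and 1 NK cell. Of these, 2 dividing cells and 1 co-clustered T cell had Il1rl1, Gata3, Rora, Ly6a and Klrg1 together, at 8403, 6961 and 4948 UMIs.

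**Figure D4:**
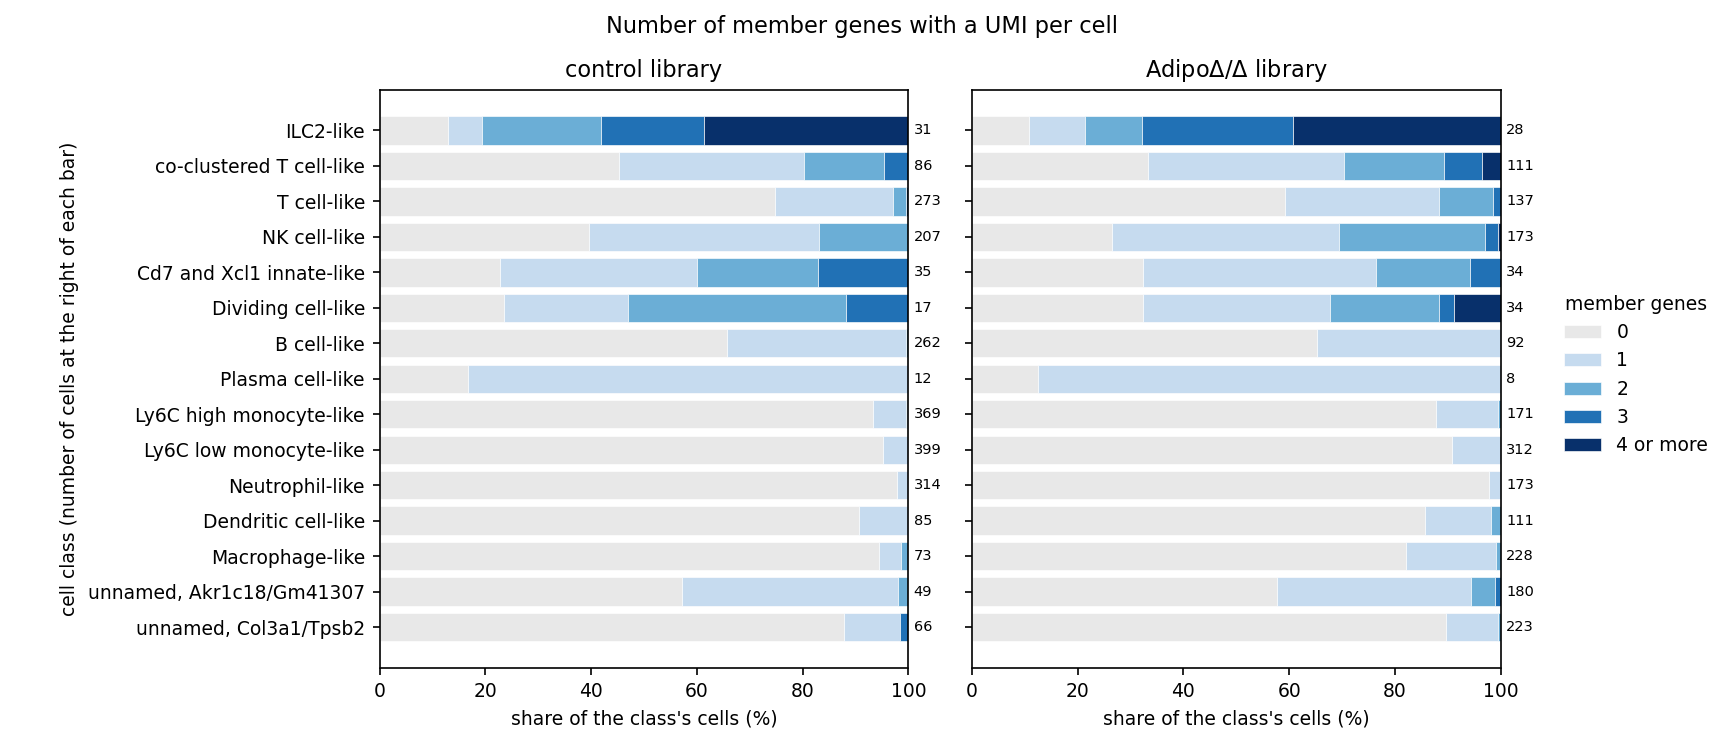
Share of the cells of each class (rows, in %, with the number of cells at the right) that had a UMI of 0, 1, 2, 3 or 4 or more member genes, in the control (left) and AdipoΔ/Δ library (right). Cells with 4 or more members are 12 of 31 and 11 of 28 ILC2-like cells and 8 cells of the AdipoΔ/Δ library in other classes.

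Of the 36 possible pairs of members, 23 occurred in at least 1 cell and 19 in at least 1 ILC2-like cell. The most frequent was Gata3 with Klrg1, in 128 cells, of which 76 were NK cells and 22 (17.2%) ILC2-like. Gata3 with Ly6a occurred in 108 cells, of which 39 (36.1%) were ILC2-like and 26 co-clustered T cells. Pairs with Il1rl1 had the highest shares of ILC2-like cells among the 10 pairs found in at least 10 cells: Il1rl1 with Gata3 was ILC2-like in 27 of 39 cells (69.2%, 52.4 to 83.0), with Ly6a in 28 of 46 (60.9%, 45.4 to 74.9), with Klrg1 in 16 of 29 and with Rora in 15 of 31. In 3 of the 10 pairs most cells were ILC2-like. Il1rl1, Gata3 and Ly6a together were found in 31 cells, 26 of them ILC2-like (14 control and 12 AdipoΔ/Δ). Of the 183 cells with Il1rl1 but not Gata3, 90 lay in the Akr1c18 cluster and 2 were ILC2-like. Of the 104 cells with Gata3 and Klrg1 but not Il1rl1, 72 were NK cells and 7 were ILC2-like. The pair of Gata3 and Klrg1 alone thus lay mainly in NK cells.

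The genes whose levels ran most like Il1rl1 over the 30 class-by-library points, by Pearson correlation of log2(CPM + 1), were 2510009E07Rik (0.780), Sept8 (0.745), Plxna1 (0.740), Sepsecs (0.720) and Mdfic (0.714) among 10672 genes. Among members, Il1rl1 correlated at 0.593 with Rora, 0.403 with Gata3, 0.385 with Klrg1 and 0.117 with Ly6a. Among the pairs of these members, Gata3 and Klrg1 had the highest value, 0.878. The points share 2 libraries and differ in depth, and these values describe them only.

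Other genes known from ILC2 biology were read in the same cells. Of 17 ILC2 receptor genes, 16 had a UMI in ILC2-like cells. With at least 20 UMIs in these cells, 5 of 6 receptors had their highest level there among all classes, against 217 of all 1208 genes (18.0%). This is partly set by the naming rule, since Il7r, Il2ra and Icos of the 5 were among the markers that named the class. The most abundant were Il7r, the IL-7 receptor, at 723 and 803 CPM, Il2rg, the common cytokine receptor chain, at 415 and 480 CPM, and Tnfrsf18, the co-receptor GITR, at 251 and 375 CPM. None of the 6 receptors with at least 20 UMIs was past 2-fold. Ptgdr2 had no UMI, and Il1rap, the partner chain of ST2, had 1 UMI per library. Of 14 transcription factor genes 12 had a UMI, led by Id2 (1572 and 1470 CPM), Ets1 (540 and 542 CPM) and Maf. Of the 4 with at least 20 UMIs only Id2 was highest in ILC2-like cells, and it was a naming marker too. Maf, which macrophages express as well, was the only one of the 4 past 2-fold, at 125 and 344 CPM, a ratio of 2.74 (1.41 to 5.68). Hes1 and Irf4 were at 0.

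Most other ILC2 products and ligands had no UMI in these cells. Of 8 other effector genes only Csf2, which encodes GM-CSF, had a UMI, at 106 CPM (11 UMIs) in control and 41.7 CPM (4 UMIs) in AdipoΔ/Δ, a ratio of 0.393 (0.0913 to 1.33). Il9, Il6, Il10, Penk, Calca, Ccl1 and Tph1 had none. Of 9 activating ligands, Il2 (1 and 5 UMIs) and Icosl (4 and 1 UMIs) were found in ILC2-like cells, and Il33 and Il25 had no UMI in any kept cell. Of 11 receptors and transducers of the member cytokines 7 had a UMI, led by Jak1, Stat6 and Stat5b, with Il13ra1, Il13ra2, Il5ra and Egfr at 0. Of 10 IL-4 and IL-13 target genes of macrophages 5 had a UMI, led by Retnla with 3 and 15 UMIs (ratio 5.40, 1.53 to 29.1), a gene that reached 14220 and 15767 CPM in the Akr1c18 cluster. Of the group 1 and group 3 lymphoid genes read here, Tbx21, Eomes, Ifng, Ncr1, Il22 and Il17a were at 0 in ILC2-like cells, and Il23r had 1 UMI in AdipoΔ/Δ. The ILC2-like cells thus carried several receptors of the type 2 programme, with few transcripts of its secreted products at this depth.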

How the data were processed

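CD45+ cells of 1 control and 1 AdipoΔ/Δ library were analysed from the UMI count matrices deposited by the authors, which hold whole, unnormalised counts per gene and barcode made with Cell Ranger 4.0.0 (file header) on mm10 (submitters' processing notes). Members and gene lists were chosen with earlier results of these data known. Cells needed 200 detected genes and no more than 10% of UMIs from mitochondrial genes. Cells were normalised with sctransform 0.4.2, integrated and clustered in Seurat 5.3.0 (R 4.3.3) on 1994 of 2000 features, the 6 listed genes among them left out, with 20 components at resolution 1. This did not part ILC2-type cells from T cells. The cluster holding both was therefore split again (Scanpy 1.11.5, 995 genes, 20 components, resolution 1), and a pair of barcodes led by epithelial or mast cell genes was set apart. Split, naming rule and setting apart were chosen after seeing the data, and 6 other combinations were tried. UMIs were summed per class and library, with exact Poisson, Clopper-Pearson and conditional binomial intervals (SciPy 1.17.1, NumPy 2.4.6, pandas 2.3.3, Python 3.11.15). Ratio scripts were tested on simulated data. Some listed genes are not reported here, and all member counts are over the 9 that are. The count of genes highest in ILC2-like cells was added after seeing the data. Genes named beside the members were the 3 highest of each list, list members at 0, the 5 genes most correlated with Il1rl1 and the 5 largest ratios on each side.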

Additional observations from a re-analysis of the deposited data

How the results depend on the processing

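No paired analysis was possible because each condition had 1 library. In ILC2-like cells, over 19 settings, the ratio of AdipoΔ/Δ over control stayed above 1 for Gata3 (1.39 to 1.92) and below 1 for Il1rl1 (0.548 to 0.981). It lay on both sides of 1 for Ly6a (0.684 to 1.39), Klrg1 (0.978 to 1.61) and Rora (0.616 to 1.34). Of 94 main results under an alternative, 87 kept to their counting interval or count limit, and the 7 that moved are the shares and counts named further below. Of the member values, 22 of 342 levels, 1 of 95 ratios in ILC2-like cells, 3 of 23 ratios over all kept cells, 15 of 143 shares of UMIs and 74 of 540 shares of cells with a UMI moved. With a mitochondrial limit of 5% and a further cluster that the naming rule also took, chosen after seeing the data, ILC2-like cells were 4.11% of control and 3.82% of AdipoΔ/Δ cells, since that cluster was added, and 20.1% of AdipoΔ/Δ cells with 2 or more members. Without it the 5% limit left 25 and 30 ILC2-like cells, but restricting the name to the split cluster was also chosen after seeing the data. The 2% limit left 19 and 11. Requiring 2 UMIs of a gene left 39 control and 64 AdipoΔ/Δ cells with 2 or more members, by construction. With at least 50 UMIs 13 of 425 genes (3.06%) were past 2-fold, and with at least 10 UMIs 503 of 2690 (18.7%), against 9.6% in the main setting, so this share depends on the count limit, with no member past it in any. The Il1rl1 ratio over all kept cells was 1.89 to 2.19 over 4 settings, below 2-fold at the 5% limit, and the cause was not tested. The splitting, set-apart and outside-cluster alternatives were chosen after seeing the data. In 59 ILC2-like cells, depth limits the cytokines: 0 UMIs allow up to 28.9 CPM in control and 31.3 CPM in AdipoΔ/Δ.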
